A study of Mus musculus with 6 samples.

Results

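The expression of 42 cell cycle and DNA replication genes was followed after siRNA against Stat3 in primary cancer-associated fibroblasts (CAFs), which are fibroblasts from the stroma of a tumour. The members were taken by symbol from a given list, and all 42 were found among the 24015 symbols of the count table. They comprised 10 G1 cyclins, cyclin-dependent kinases (CDKs) and E2F factors, 3 CDK inhibitors, 13 genes of DNA replication, and 16 genes of G2 and mitosis. The CAFs came from mammary tumours of NeuT mice on a BalbC strain background, transgenic animals that carry an activated rat Her2/neu oncogene and develop mammary carcinomas. Nanoparticles were given at 1 ug/mL for 72 hours, carrying control siRNA in 3 samples and anti-Stat3 siRNA in the other 3, and poly(A) RNA was sequenced. Both groups were cultured in the same medium with serum. The labels do not say whether samples of a group came from separate mice or cultures, so the p-values speak only of the spread among these 6 samples, part of which may be technical.

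A cell leaves G1 when D-type cyclins with CDK4 or CDK6, and then E-type cyclins with CDK2, inactivate the retinoblastoma proteins and free E2F factors, which switch on the genes of DNA replication. CDK inhibitors oppose these kinases. In G2, cyclin A and B with CDK1, and the factor FOXM1, drive the genes of mitosis, and STAT3, a transcription factor activated by cytokines of the IL-6 family, is known in other cells as an activator of D-type cyclin genes.

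Total counts ranged from 12998168 to 18683852 per sample, and the members together took 0.177% to 0.277% of them. Levels are given in CPM, read counts scaled to sequencing depth, here with TMM factors, and changes as log2 of anti-Stat3 over control siRNA. Samples with the same number in their titles deviated together from their group means and are called pairs 1, 2 and 3. Stat3 itself was at 220, 359 and 405 CPM in controls 1, 2 and 3 and at 34.7, 81.9 and 78.9 CPM in anti-Stat3 samples 1, 2 and 3. Its log2 change was -2.38 ± 0.14 (SE, n = 3 pairs) with an adjusted p of 0.0027 in edgeR's quasi-likelihood test with the replicate number as a block, and the adjusted p was 0.264 without pair 3.

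Among the cell type markers, pair 1 stood apart in its macrophage and fibroblast sums, and pair 2 in its epithelial or tumour cell sum. The summed level of 19 macrophage markers was 85.6 CPM in control 1 and 66.1 CPM in anti-Stat3 sample 1, against 1815 to 2939 CPM in the other 4 samples. For 12 fibroblast markers, all of which passed the filter on low counts, the sums in the control and the anti-Stat3 sample were 26225 and 30612 CPM in pair 1, 69496 and 47151 CPM in pair 2, and 72402 and 56866 CPM in pair 3. The collagen genes Col1a1, Col1a2 and Col3a1 made up most of each sum. For Vim, Postn and Thy1 the samples of pair 1 were not both below the other 4, and for the rest of the 12 they were. Of 21 epithelial or tumour cell markers, 17 passed the filter and Csn2 and Wap were at 0 in every sample, and their sum was 1005 and 1020 CPM in pair 2, 210 and 205 CPM in pair 1 and 63.3 and 66.7 CPM in pair 3. Csn3 made up 412 and 438 CPM of the sums of pair 2. Krt19 was lowest in pair 2 and Krt14 highest in anti-Stat3 sample 1, while the other markers of this list that passed were highest in pair 2. Lyz2 was the largest part of the macrophage sums in pairs 2 and 3. Endothelial markers, of which 3 of 6 passed, summed to between 5.07 and 32.9 CPM. None of these markers was called between the treatments by edgeR or DESeq2 with the block. Results are also given without pair 1 where that changes them. Leaving out pair 1 also raised the edgeR calls over all genes, from 3 higher and 5 lower to 408 higher and 295 lower.

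All 42 members passed the filter on low counts, with no count below 26 in any sample, and in the edgeR fit with the replicate block none was called higher or lower at an adjusted p under 0.05. Over all 13284 genes tested, 0.0226% were called higher and 0.0376% lower, so a count of 0 among 42 genes lies at the background. At an unadjusted p under 0.05 there were 3 members, Ccnd1, Ccnd2 and Cdkn2a, which is 7.14% of the list against 10.8% of all genes. limma-voom with the block called 0 members and 0.0602% of all genes. DESeq2 with the block called 1 member higher, Cdkn2a, and 0 lower, against 0.873% of all genes called higher and 0.783% lower, 1.66% in all. Without the block, edgeR called 0 members and 0 of all genes, and DESeq2 called 0 members and 0.128% of all genes.

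The median log2 change over the members was 0.04, with medians of 0.02, 0.06 and 0.09 within pairs 1, 2 and 3, and the median over all genes tested was -0.01. Positive changes were fitted for 22 members and negative ones for 20. All 3 pairs moved the same way for 14 members, 9 of them higher and 5 lower, which is 33.3% of the list against 33.7% of all genes, 17.3% higher and 16.4% lower. Ccnb2 was the only member whose 2 groups did not overlap, while 4.67% of all genes had groups that did not overlap, 2.45% higher and 2.23% lower. In direction and in overlap the members were thus near or below the background of the table.

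What the edgeR fit does give for each member is a 95% interval for the size of its change. These intervals are for single genes, do not hold jointly for the list, and depend on the fit. In DESeq2 with the block the SEs of Mcm6 and Aurkb were 0.18 and 0.20, against 0.13 for both in edgeR. The 95% interval lay inside a 2-fold change in either direction for 41 of 42 members, the exception being Ccnd1, against 86.8% of all genes. It lay inside a 1.5-fold change for 35 members, 83.3% of the list against 64.2% of all genes. The lowest mean level was 3.17 CPM among the members and 0.444 CPM among all genes tested, so these shares compare genes of unlike depth. In edgeR the 1.5-fold limit held for all 13 replication genes and all 16 genes of G2 and mitosis, each taken singly. The 7 members whose intervals passed the 1.5-fold limit were Ccnd1, Ccnd2, Cdk6, Ccne2, E2f2, Cdkn2a and Cdkn2c, all of them G1 regulators or CDK inhibitors. Passing the limit does not mean a wide interval, since those of Ccnd2 and Cdkn2a were narrower than that of Cdc6 but lay higher. The plot of the change of each member shows these intervals by phase.

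**Figure D1:**
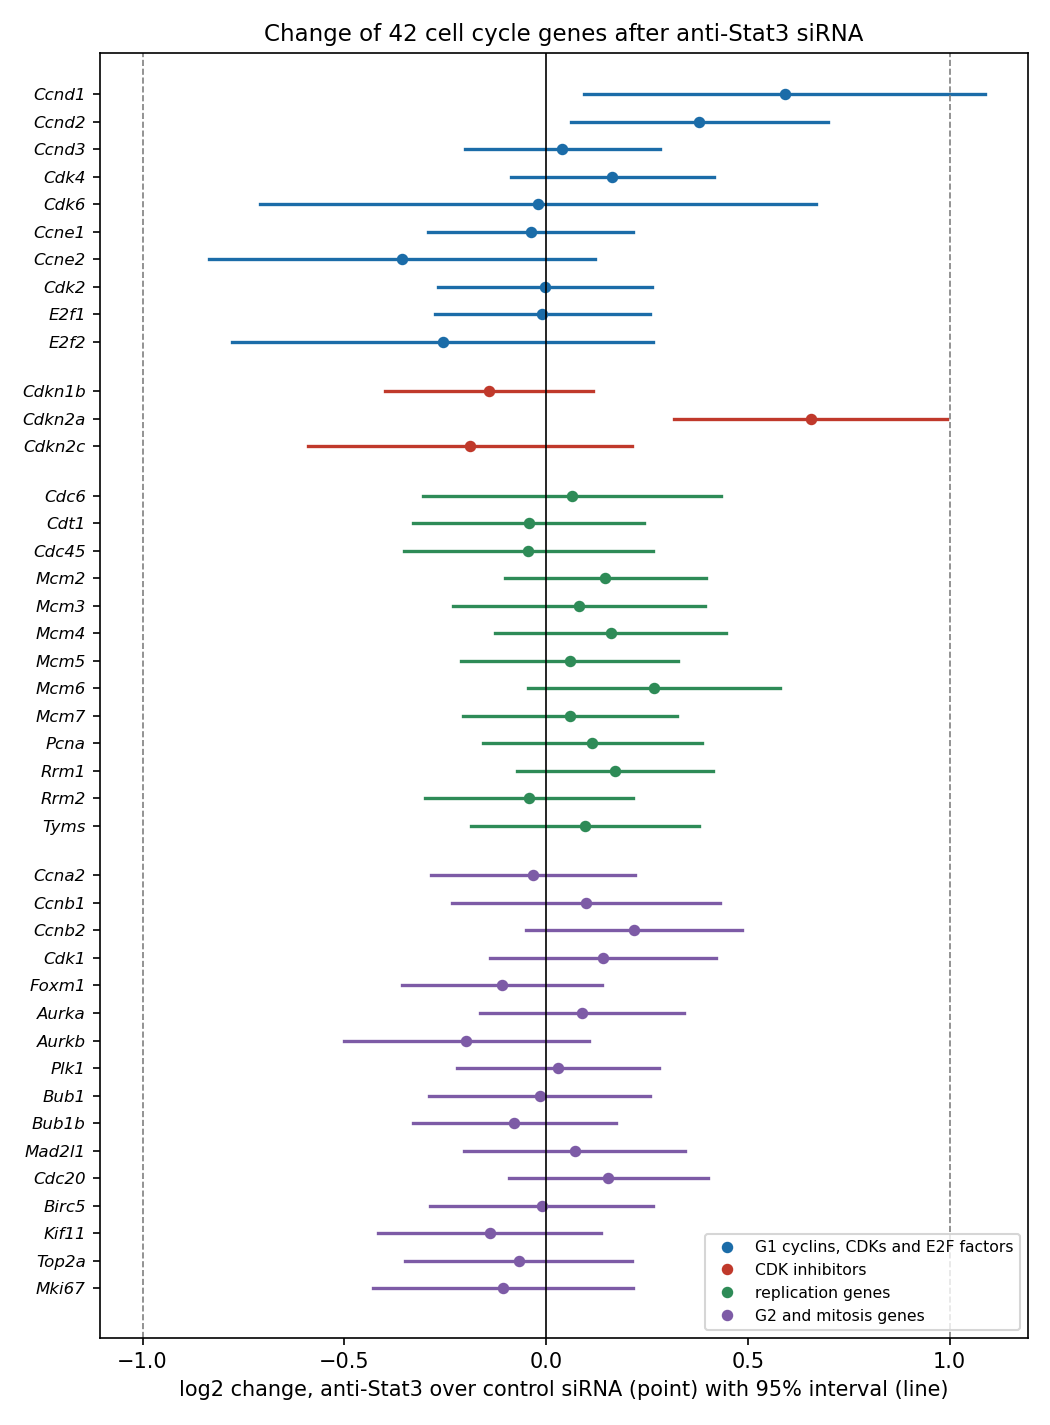
Log2 change of each of the 42 members after anti-Stat3 siRNA (x axis; point, edgeR estimate with the replicate block; line, 95% interval; dashed lines, 2-fold) with genes on the y axis, coloured by phase. The replication and mitosis intervals all cross 0 and stay well inside 2-fold, and only the intervals of Ccnd1, Ccnd2 and Cdkn2a lie wholly above 0.

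Among the G1 genes, none of the 10 was called, and the largest estimates belonged to the D-type cyclins Ccnd1 and Ccnd2 and to the E-type cyclin Ccne2. The median change of the 10 was -0.01, with -0.05, 0.01 and 0.12 in pairs 1, 2 and 3. Ccnd1, which encodes cyclin D1, was at 280, 106 and 55.1 CPM in controls 1, 2 and 3 and at 265, 182 and 116 CPM in anti-Stat3 samples 1, 2 and 3. The 2 samples of pair 1 were the highest of all 6 and differed by only -0.08, whereas the anti-Stat3 sample was higher by 0.78 in pair 2 and by 1.08 in pair 3, and the groups overlapped. The fitted change was 0.59 ± 0.21 (SE, n = 3 pairs; 95% interval 0.09 to 1.09), with an adjusted p of 0.363 in edgeR. Without pair 1 the change was 0.93 and edgeR called it, with an adjusted p of 0.0030, as did DESeq2, with an adjusted p of 2.95e-04. In that fit to the 4 remaining samples, Ccnd1 and Cdkn2a were the 2 members called, both higher, while 3.02% of all genes were called higher and 2.18% lower. The DESeq2 fit to those samples called the same 2 members, against 2.03% of all genes higher and 1.17% lower. Without pair 2 edgeR called 0 of all genes higher, and without pair 3 it called 0 in either direction. Ccnd1 was thus not called in edgeR with pair 2 or pair 3 left out, and pair 1 was the pair in which it did not rise.

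Ccnd2, the gene of cyclin D2, was at 623, 411 and 375 CPM in controls 1, 2 and 3 and at 676, 629 and 497 CPM in anti-Stat3 samples 1, 2 and 3. Each anti-Stat3 sample was above the control of its pair, by 0.12, 0.61 and 0.41, but the groups overlapped because control 1 was above anti-Stat3 sample 3. The change was 0.38 ± 0.14 (SE, n = 3 pairs; 95% interval 0.06 to 0.70) with an adjusted p of 0.362 in edgeR. Ccnd3 changed by 0.04 ± 0.10 on the same scale, with all its samples between 71.9 and 94.5 CPM. Per kilobase of transcript, Ccnd2 was the highest of the 3 D-type cyclins in every sample, with 47.3% to 54.6% of their summed level. The share of Ccnd1 in that sum was 36.0% in control 1 and 12.7% in control 3, and 32.9% and 20.1% in the anti-Stat3 samples of those pairs.

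Cdk4, the main kinase partner of the D-type cyclins, was at 167, 143 and 196 CPM in the controls and at 175, 163 and 231 CPM after anti-Stat3 siRNA. Its change of 0.16 ± 0.11 (SE, n = 3 pairs) had the same sign in all pairs and an adjusted p of 0.633 in edgeR. Cdk6, its paralogue, was far lower per kilobase, at 0.637 ± 0.193 CPM per kb in the controls against 82.2 ± 12.9 for Cdk4 (SD, n = 3). The change of Cdk6 differed in sign between pairs, -0.12, 0.74 and -0.95, and its interval ran from -0.71 to 0.67.

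Ccne2, an E-type cyclin gene, was at 10.4, 5.66 and 3.72 CPM in the controls and at 8.59, 5.39 and 1.99 CPM in the anti-Stat3 samples. It was lower in every pair, by 0.27, 0.07 and 0.86 in log2, yet the groups overlapped, and the change of -0.36 ± 0.20 (SE, n = 3 pairs) had an adjusted p of 0.577 in edgeR. E2f2, one of the activating E2F genes and the member with the lowest mean CPM, was at 3.18, 3.02 and 4.08 CPM in the controls and at 2.13, 2.56 and 4.07 CPM after anti-Stat3 siRNA. Its change was -0.26 ± 0.22 (SE, n = 3 pairs; adjusted p = 0.719 in edgeR), and in pair 3 the levels were nearly equal. The remaining G1 members, Ccne1, Cdk2 and E2f1, had estimates of -0.04, 0.00 and -0.01, each with an SE of 0.11. Their intervals stayed between -0.29 and 0.26, so a change of 1.5-fold lay outside them.

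Among the 3 CDK inhibitors, Cdkn2a carried the largest estimate of any member, while Cdkn1b and Cdkn2c had small negative ones. Cdkn2a encodes p16Ink4a, an inhibitor of CDK4 and CDK6, and p19Arf, which stabilises p53, from separate first exons. Counts were made per gene, so these transcripts cannot be told apart here. Cdkn2a was at 25.6, 13.7 and 27.8 CPM in controls 1, 2 and 3 and at 31.1, 24.6 and 50.0 CPM in anti-Stat3 samples 1, 2 and 3. Every anti-Stat3 sample exceeded the control of its own pair, by 0.28, 0.84 and 0.84, although anti-Stat3 sample 2 was below controls 1 and 3, so the groups overlapped. The change was 0.66 ± 0.14 (SE, n = 3 pairs; 95% interval 0.32 to 0.99), with an adjusted p of 0.170 in edgeR and 0.041 in DESeq2, both with the block. Without pair 1 both tools called it, with adjusted p of 0.0050 in edgeR and 0.022 in DESeq2, and without pair 2 or pair 3 neither did. In bulk samples a different share of cells with the transcript and a different amount of RNA per cell cannot be told apart, for this gene or for any other here.

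Cdkn2b, the neighbour of Cdkn2a and the gene of the CDK4 and CDK6 inhibitor p15Ink4b, was in a second list of 127 cell cycle genes. It was at 59.2, 31.6 and 41.5 CPM in controls 1, 2 and 3 and at 71.9, 64.1 and 74.1 CPM in anti-Stat3 samples 1, 2 and 3. The groups did not overlap, as in 2.45% of all genes in this direction. Its change was 0.71 ± 0.15 (SE, n = 3 pairs), with pair changes of 0.28, 1.02 and 0.84 and an adjusted p of 0.170 in edgeR and 0.014 in DESeq2, both with the block. Without pair 1 the adjusted p was 0.0021 in edgeR, and without pair 2 or pair 3 neither tool called it. A long noncoding gene, Gm12610, overlaps it in the RefSeq annotation and is not a row of the table, and use of the strand in counting was not given in the sources used here, which makes the level of Cdkn2b uncertain to that extent. The plot of levels in each pair shows that Ccnd1, Cdkn2a and Cdkn2b differed least within pair 1. In pairs 2 and 3, where these genes differed more, the summed fibroblast markers were lower in the anti-Stat3 sample than in its control, while in pair 1 they were higher. These sums were mostly collagen counts, and in pair 3 single markers moved both ways, with Col3a1 at -0.89 and Vim at 0.40. The median log2 change of the 12 fibroblast markers was 0.11, -0.33 and 0.01 in pairs 1, 2 and 3. The part of these marker differences in the changes of Ccnd1, Cdkn2a and Cdkn2b was not tested.

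**Figure D2:**
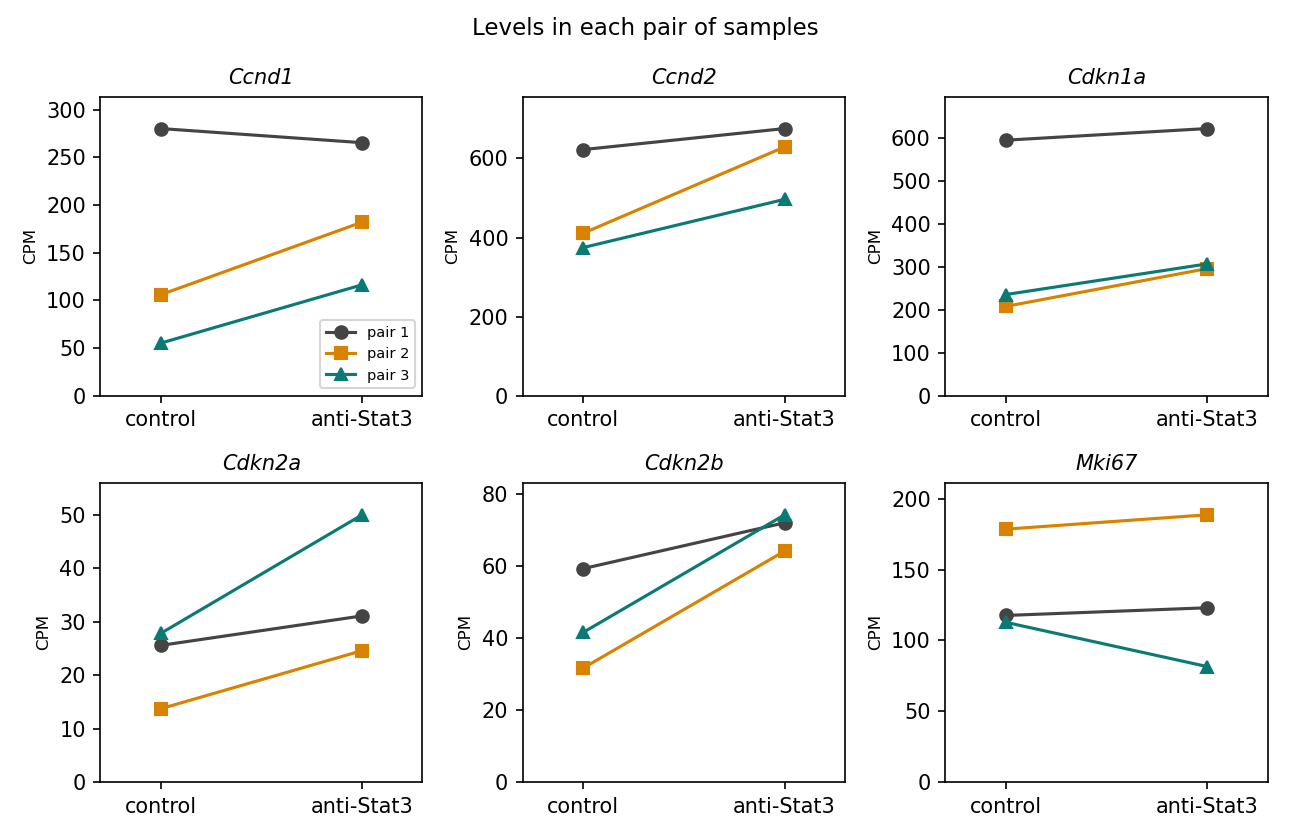
CPM (y axis, from 0) in the control and the anti-Stat3 sample of each pair (x axis; lines join the 2 samples of a pair) for Ccnd1, Ccnd2, Cdkn1a, Cdkn2a, Cdkn2b and Mki67. The lines of pair 1 are nearly flat in most panels, Cdkn2a and Cdkn2b are higher at the anti-Stat3 end of all 3 lines, and Mki67 is lower there in pair 3 alone.

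The stretches before the starts of Cdkn2a and Cdkn2b are printed because these were the cell cycle genes that DESeq2 with the block called. They were taken from RefSeq on GRCm38.p6, another build than the mm9 used for counting, and all lie on the minus strand of chromosome 4. Each line gives the 250 bases before a start, 5′ to 3′, with capitals for words of the motifs searched. The 4 motifs, on both strands, were the E2F words TTTCGCGC, TTTGGCGC, TTTCCCGC and TTTGCCGC, the cell cycle homology region (CHR) words TTTGAA and TTCGAA, the CCAAT box CCAAT, and the STAT word TTCNNNGAA.
Cdkn2a, upstream start, known as that of p19Arf, chr4:89294620-89294869: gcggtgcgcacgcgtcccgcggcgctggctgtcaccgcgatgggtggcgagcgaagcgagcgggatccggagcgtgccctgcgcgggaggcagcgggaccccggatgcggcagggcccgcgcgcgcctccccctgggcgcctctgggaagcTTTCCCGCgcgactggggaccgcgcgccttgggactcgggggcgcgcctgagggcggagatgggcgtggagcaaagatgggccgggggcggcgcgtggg
Cdkn2a, downstream start, known as that of p16Ink4a, chr4:89282193-89282442: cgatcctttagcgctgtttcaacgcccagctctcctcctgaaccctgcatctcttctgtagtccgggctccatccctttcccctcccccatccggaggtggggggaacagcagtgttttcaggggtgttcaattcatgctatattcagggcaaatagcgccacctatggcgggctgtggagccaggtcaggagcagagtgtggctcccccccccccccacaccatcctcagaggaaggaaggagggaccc
Cdkn2b, chr4:89311033-89311282: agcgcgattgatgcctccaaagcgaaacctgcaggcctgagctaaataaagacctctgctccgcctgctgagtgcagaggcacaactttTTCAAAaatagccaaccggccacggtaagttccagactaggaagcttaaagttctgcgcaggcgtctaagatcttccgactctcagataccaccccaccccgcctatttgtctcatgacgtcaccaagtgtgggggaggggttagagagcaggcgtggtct

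The upstream window of Cdkn2a holds 1 E2F word, TTTCCCGC, which begins 99 bases before the start, and that of Cdkn2b holds 1 CHR word on the other strand, 161 bases before it. None of the searched words is in the downstream Cdkn2a window. A match describes letters and not binding, and the counts do not separate the 2 starts of Cdkn2a.

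Cdkn1b, the gene of p27Kip1, was at 32.3 and 33.2 CPM in pair 1 and between 53.5 and 70.9 CPM in the other 4 samples, the one member whose pair 1 samples were both below the rest. In 18.5% of all genes both samples of pair 1 were below the other 4. The change of Cdkn1b was -0.14 ± 0.11 (SE, n = 3 pairs; adjusted p = 0.691 in edgeR). Cdkn2c, the gene of p18Ink4c, had pair changes of 0.13, -0.65 and -0.03 and a fitted change of -0.19 ± 0.17 (adjusted p = 0.733 in edgeR). Among the other inhibitors of the second list, Cdkn1a, the p53 target that encodes p21, was at 595, 208 and 235 CPM in the controls and at 622, 296 and 307 CPM after anti-Stat3 siRNA. It was higher in all pairs, by 0.06, 0.51 and 0.38, with an adjusted p of 0.442 in edgeR. Cdkn1c, with 0.844 ± 0.280 CPM in the controls, and Cdkn2d, with 1.42 ± 0.0847 CPM (SD, n = 3), were near the bottom of the range. Their changes were 0.69 ± 0.40 and -0.48 ± 0.30 (SE, n = 3 pairs), with adjusted p of 0.578 and 0.616 in edgeR. For Cdkn2d all anti-Stat3 samples were below all controls, as in 2.23% of all genes. The median over the 3 members was -0.14, and within pairs 1, 2 and 3 it was 0.13, -0.23 and -0.03.

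The 13 replication genes differed little between treatments and strongly between pairs. Their estimates ran from -0.04 to 0.27, 10 of them positive, with a median of 0.08 and pair medians of -0.04, 0.16 and 0.12. None was called, and the lowest adjusted p was 0.525 in edgeR, for Mcm6. The licensing genes Cdc6 and Cdt1, which load the helicase at origins, had changes of 0.06 ± 0.16 and -0.04 ± 0.12 (SE, n = 3 pairs). For Cdc45, a subunit of the active helicase, the change was -0.04 ± 0.13.

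The 6 MCM genes encode the subunits of the replicative helicase, and each fitted change was positive. Mcm2 was at 51.1, 36.3 and 34.8 CPM in controls 1, 2 and 3 and at 52.5, 44.1 and 37.7 CPM in anti-Stat3 samples 1, 2 and 3, a change of 0.15 ± 0.11 (SE, n = 3 pairs; adjusted p = 0.665 in edgeR). Mcm4 was at 57.7, 40.8 and 40.5 CPM in the controls and at 58.5, 55.0 and 41.3 CPM in the anti-Stat3 samples. Both genes were higher in all pairs, with groups that overlapped, and for Mcm4 the change was 0.16 ± 0.12 (adjusted p = 0.686 in edgeR), most of it from pair 2. Mcm6 was at 43.3, 31.8 and 33.6 CPM in the controls and at 42.8, 46.9 and 40.1 CPM after anti-Stat3 siRNA. It changed by -0.02, 0.56 and 0.26 in pairs 1, 2 and 3, and its interval of -0.04 to 0.58 reached furthest up among the replication genes. Mcm3, Mcm5 and Mcm7 had changes of 0.08, 0.06 and 0.06, each with pairs of both signs. Per kilobase of transcript the highest of the 6 subunits exceeded the lowest by 1.48 to 2.22 times in the 6 samples.

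Pcna, the gene of the sliding clamp of DNA polymerases, was at 30.4, 19.2 and 17.4 CPM in controls 1, 2 and 3 and at 29.2, 22.2 and 20.0 CPM in anti-Stat3 samples 1, 2 and 3. Both samples of pair 1 were above the other 4, and the change of 0.11 ± 0.12 (SE, n = 3 pairs) had an adjusted p of 0.762 in edgeR. Rrm1, the large subunit of ribonucleotide reductase, was at 190, 112 and 114 CPM in the controls and at 212, 133 and 122 CPM after anti-Stat3 siRNA. It was higher in every pair, by 0.16, 0.25 and 0.10, while its controls alone spanned 0.77 in log2, and the adjusted p of its change of 0.17 ± 0.10 was 0.602 in edgeR. Rrm2, the small subunit, changed by -0.04 ± 0.11, and Tyms, thymidylate synthase, by 0.10 ± 0.12 (SE, n = 3 pairs). The table also has a row for a Tyms pseudogene, with 332 counts over all samples, and no source used here gives the handling of shared reads.

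The 16 genes of G2 and mitosis had estimates between -0.20 and 0.22, 7 positive and 9 negative, and none was called, the lowest adjusted p in edgeR being 0.544, for Ccnb2. Their median change was -0.01, with pair medians of 0.06, 0.02 and -0.08. Ccnb2, one of the mitotic B-type cyclins, was at 22.5, 22.1 and 18.5 CPM in controls 1, 2 and 3 and at 26.1, 23.5 and 23.7 CPM in anti-Stat3 samples 1, 2 and 3. All anti-Stat3 samples were above all controls, by pair changes of 0.21, 0.09 and 0.36, as in 2.45% of all genes. The fitted change was 0.22 ± 0.11 (SE, n = 3 pairs; 95% interval -0.05 to 0.49).

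Cdc20, the activator of the anaphase-promoting complex, was at 32.0, 21.0 and 23.2 CPM in the controls and at 34.9, 23.7 and 25.9 CPM in the anti-Stat3 samples, with nearly equal pair changes of 0.12, 0.18 and 0.16. Its groups overlapped, since control 1 was above anti-Stat3 samples 2 and 3, and the change of 0.15 ± 0.11 (SE, n = 3 pairs) had an adjusted p of 0.649 in edgeR. Aurka, a kinase of spindle assembly, was at 27.1, 17.9 and 18.7 CPM in the controls and at 28.6, 18.5 and 20.6 CPM after anti-Stat3 siRNA. It was higher in each pair by at most 0.14 in log2, with a change of 0.09 ± 0.11 and an adjusted p of 0.808 in edgeR. Aurkb, the kinase of the chromosomal passenger complex, had the lowest estimate of the phase, -0.20 ± 0.13 (adjusted p = 0.632 in edgeR).

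Foxm1, the transcription factor of G2 and mitosis genes, was at 40.7, 36.2 and 32.8 CPM in controls 1, 2 and 3 and at 38.7, 35.2 and 28.2 CPM in anti-Stat3 samples 1, 2 and 3. Kif11, a motor that separates the spindle poles, was at 26.9, 29.5 and 20.4 CPM in the controls and at 25.6, 29.0 and 16.1 CPM after anti-Stat3 siRNA. Both were lower in every pair, most in pair 3, with groups that overlapped. Their changes were -0.11 ± 0.11 and -0.14 ± 0.12 (SE, n = 3 pairs), with adjusted p of 0.749 and 0.714 in edgeR. Bub1b, a spindle checkpoint kinase gene, was the third gene of the phase that was lower in all pairs, with a change of -0.08 ± 0.11.

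Mki67, whose protein Ki-67 is the usual histological marker of cycling cells, was at 118, 179 and 113 CPM in controls 1, 2 and 3 and at 123, 189 and 81.5 CPM in anti-Stat3 samples 1, 2 and 3. Top2a, the topoisomerase that untangles sister chromatids, was at 134, 141 and 101 CPM in the controls and at 139, 149 and 80.4 CPM after anti-Stat3 siRNA. In both genes the anti-Stat3 sample was slightly above its control in pairs 1 and 2 and below it in pair 3. The changes were -0.11 ± 0.14 for Mki67 and -0.07 ± 0.12 for Top2a (SE, n = 3 pairs), with adjusted p of 0.819 and 0.874 in edgeR, and without pair 3 they were 0.07 and 0.06. The interval for Mki67, -0.43 to 0.22, leaves a fold of 0.743 to 1.16. Ccna2, Ccnb1, Cdk1, Plk1, Bub1, Mad2l1 and Birc5 made up the rest of the phase, with changes from -0.03 to 0.14 and pairs of both signs in each.

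Changes within pairs are drawn by phase. The spread over genes was widest among the G1 genes and the inhibitors, and the medians of the replication genes and of the G2 and mitosis genes lay within 0.16 of 0 in each pair.

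**Figure D3:**
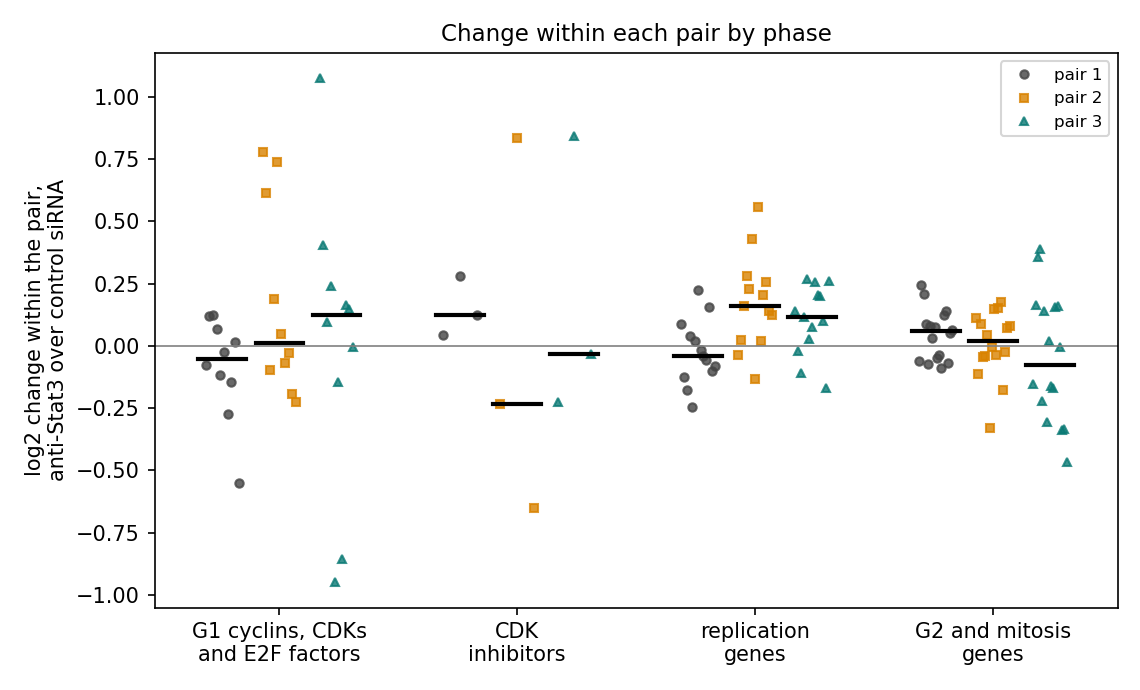
Log2 change within each pair (y axis; 1 point per gene, colour and shape by pair, bar for the median) for the 4 phases (x axis). The medians of replication and mitosis genes lie close to 0 in all pairs. Single genes of these phases reach 0.56 (Mcm6, pair 2) and -0.47 (Mki67, pair 3). The points furthest from 0 are G1 genes and inhibitors of pairs 2 and 3, led by Ccnd1 at 1.08 in pair 3.

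Differences between pairs were larger than those between treatments. In 37 of 42 members the range over the 3 controls exceeded the largest change within any pair, against 71.5% of all genes, the exceptions being Cdk6, E2f1, E2f2, Mcm6 and Ccnb2. In 25 members, or 59.5%, both samples of pair 1 were above the other 4 samples, against 18.9% of all genes. These 25 included 12 of 13 replication genes, all but Mcm6, and 10 of 16 genes of G2 and mitosis. They included 3 of 10 G1 genes, Ccnd1, Ccne1 and Ccne2, and 0 of 3 CDK inhibitors. Rrm2, for example, was at 97.5 and 91.0 CPM in pair 1 and between 37.5 and 47.4 CPM in the other 4 samples, and Tyms was at 35.6 and 33.7 CPM against 14.6 to 17.6 CPM.

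The median log2 difference of pair 1 over the mean of pairs 2 and 3 was 0.60 for the replication genes, 0.35 for the G2 and mitosis genes, 0.31 for the G1 genes and 0.01 for all genes tested. Mki67, Top2a, Kif11 and Bub1b did not follow this pattern and were highest in pair 2. Pair 1 was also the pair with the low macrophage and fibroblast marker sums given above, and the part of cell composition in the difference between pairs was not tested. The map of levels by sample shows the block of replication genes that were high in pair 1 under both treatments.

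**Figure D4:**
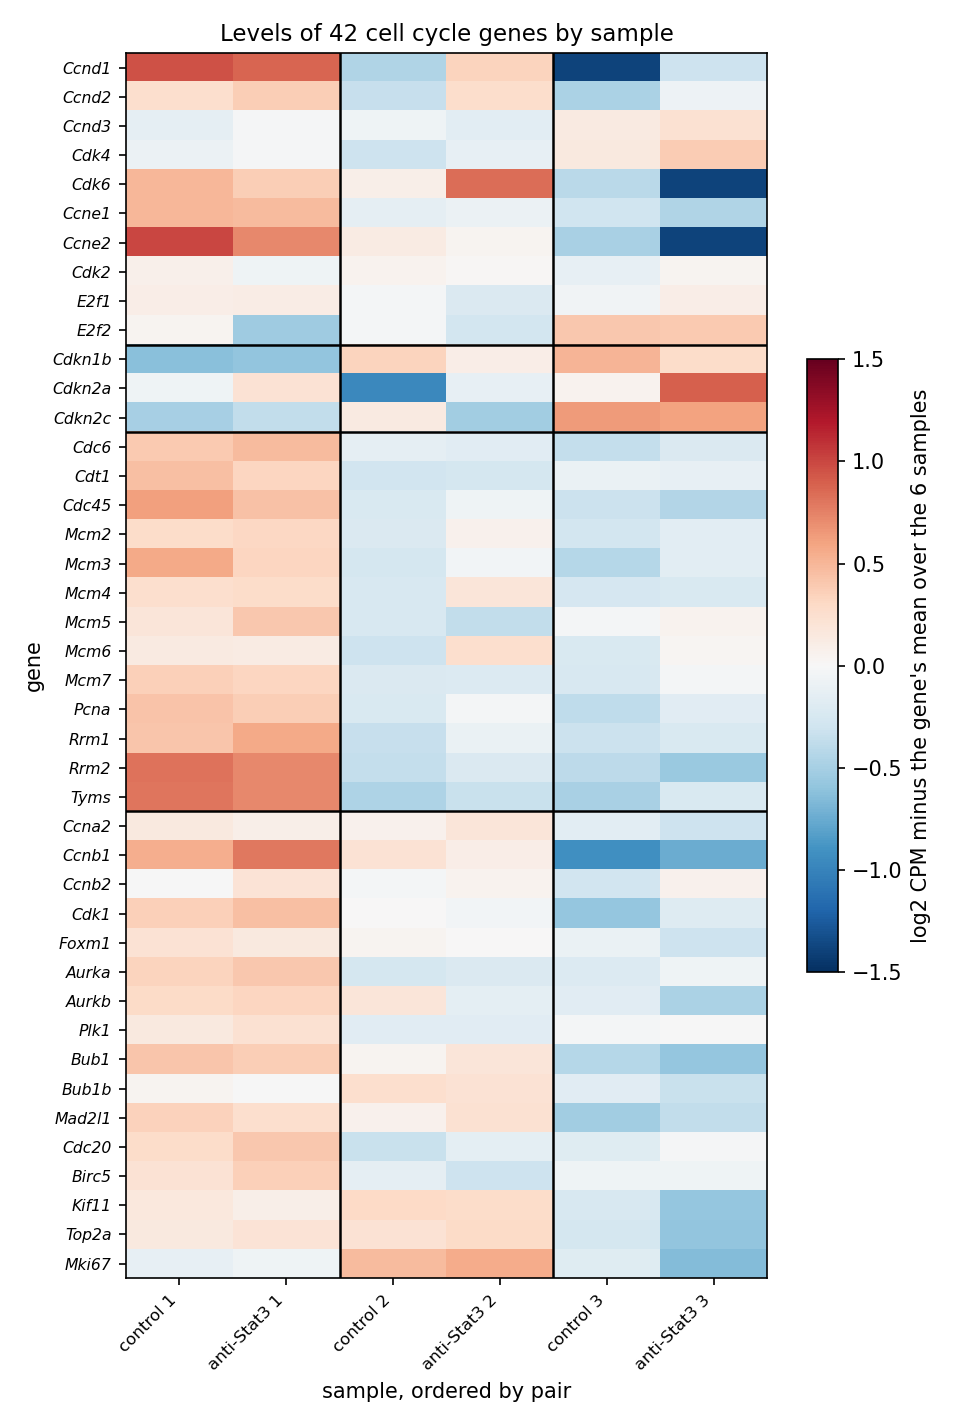
Log2 CPM of each member minus its mean over the 6 samples (colour), with genes on the y axis by phase and samples on the x axis by pair. Replication genes are above their mean in both samples of pair 1, as are most genes of G2 and mitosis, and the 2 columns of a pair resemble each other more than columns of the same treatment.

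Of the 127 further cell cycle genes in the second list, all passed the filter, and edgeR with the block called none in either direction. DESeq2 with the block called 1, Cdkn2b. Their median change was 0.01, with 66 positive and 61 negative estimates, and by phase it was -0.08 for 14 G1 genes, 0.50 for 4 inhibitors, 0.04 for 43 replication genes and -0.00 for 66 genes of G2 and mitosis. The inhibitor median rests on 4 genes with estimates from -0.48 to 0.71, among them the low Cdkn1c, whose 95% interval was -0.24 to 1.62. Unadjusted p was under 0.05 for 3 of the 127, Cdkn1a, Cdkn2b and Rfc3, or 2.36%. Groups did not overlap for 2 of the 127 that were higher and 2 that were lower, against 2.45% and 2.23% of all genes. The 95% interval was inside 1.5-fold for 114 of the 127. In 70 of them, or 55.1%, both samples of pair 1 were above the other 4, a share close to that of the 42 members.

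RefSeq windows of 250 bases before the start were at hand for 35 of the 42 members, 40 windows in all. Ccnd1, Ccnd2, Ccne2, Mcm4, Ccna2, Foxm1 and Aurkb had no entry. CCAAT boxes were in 11 of 13 windows of G2 and mitosis genes and in 10 of 13 of replication genes, against 33.8% of the 32851 windows of all genes in that table. CHR words were in 7 of 13 windows of the G2 and mitosis genes, those of Bub1b, Ccnb2, Cdc20, Cdk1, Kif11, Mki67 and Top2a, against 17.1% of all windows. E2F words were in 4 of 13 windows of the replication genes, those of Cdc6, Mcm5, Mcm6 and Mcm7, against 1.86% of all windows. The STAT word was in 2 of the 40 member windows, those of Cdc45 and Mcm5, or 5%, against 7.02% of all windows. The changes of Cdc45 and Mcm5 were -0.04 ± 0.13 and 0.06 ± 0.12 (SE, n = 3 pairs).

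One window of each kind is printed, the last 120 bases before the start of Mcm6 for the E2F words of the replication genes and of Cdk1 for the CHR words of the mitosis genes. Capitals again mark the words, and in Mcm6 the first 2 E2F words, on opposite strands, overlap.
Mcm6, minus strand of GRCm38.p6, chr1:128359706-128359825: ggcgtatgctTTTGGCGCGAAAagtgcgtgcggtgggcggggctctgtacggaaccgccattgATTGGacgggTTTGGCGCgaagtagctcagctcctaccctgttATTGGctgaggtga
Cdk1, minus strand of GRCm38.p6, chr10:69352913-69353032: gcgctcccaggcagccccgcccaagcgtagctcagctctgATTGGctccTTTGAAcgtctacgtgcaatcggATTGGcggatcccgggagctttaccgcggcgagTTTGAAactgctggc

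In Mcm6 the E2F words begin 110, 106 and 47 bases before the start and the CCAAT boxes, read here as ATTGG on the other strand, 57 and 14 bases before it. In Cdk1, the gene of the kinase that drives entry into mitosis, CHR words begin 71 and 15 bases before the start and CCAAT boxes 80 and 48 bases before it. Cdk1 was at 69.3, 54.1 and 36.0 CPM in controls 1, 2 and 3 and at 73.7, 52.5 and 47.2 CPM in anti-Stat3 samples 1, 2 and 3. The groups overlapped, pair 1 was highest in both treatments, and the change was 0.14 ± 0.12 (SE, n = 3 pairs; adjusted p = 0.714 in edgeR).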

How the data were processed

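Poly(A) RNA of primary CAFs was sequenced from TruSeq libraries, per the labels' protocols. The submitters' processing notes name TopHat2 2.0.10, HTSeq and the build mm9. As deposited by the authors, the values are raw counts per gene symbol for the 6 samples, and 0 per-sample columns were left unused. Use of the strand in counting was not given in the sources used here. Groups came from the titles and treatment labels. The count columns are named shCtrl and shStat3 where the titles write siC and siS3, and were matched to the samples by group and number.

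The test was edgeR's quasi-likelihood F test (edgeR 4.0.16 in R 4.3.3) after TMM scaling and a filter on low counts by filterByExpr (minimum count 10, minimum total 15), with Benjamini-Hochberg adjustment over all 13284 tested genes and the replicate number as a block, since the members were to be compared in samples matched by number. Deviations from group means correlated, across genes, at 0.83, 0.82 and 0.83 between samples of one number and at -0.16 or below between others. Deviations cancel within a group, so the positive values bring negative ones between the others by construction. What samples of one number share was not given in the sources used here. SEs and 95% intervals come from the same fit, and log2 CPM within pairs used a prior count of 2. Alternatives were the fit without the block, DESeq2 1.42.0, limma-voom (limma 3.58.1), other scaling and no filter. Others were a batch term for the naming scheme of the descriptions, and each sample or pair left out. That batch term set the samples numbered 3 apart from the rest. DESeq2 with pairs left out and the alternatives for the second list were added after the data were seen. Since 3 pairs allow a two-sided exact permutation p no smaller than 0.25, no such test was used. The fits were tested on simulated data with changes of 2-fold or more. These were larger than any estimate among the members, so the simulation does not cover changes of their size. Every member had counts in every sample, and the precision per member is given by its SE.

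The members, the second list and the markers were chosen with earlier results of these data known. Values in every sample are given for Stat3, for members called in a blocked fit, for up to 5 members per phase with the largest mean change among those that moved one way in all pairs, for Ccnd1, Cdkn2a, Pcna, Mki67 and Top2a, and for called genes of the second list. The per-sample values of Mcm6, Cdk1 and Cdkn1a were added after they were seen. Transcript lengths, for CPM per kilobase, were those of the longest coding transcript in the GENCODE annotation, and promoter windows and neighbouring genes came from RefSeq on GRCm38.p6.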

Additional observations from a re-analysis of the deposited data

How the results depend on the processing

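In 20 alternative settings the median change of the 42 members stayed between 0.017 and 0.06, and 0 members were called lower. Members called higher numbered 0 to 2. DESeq2 with the replicate block called 1, Cdkn2a, and leaving out pair 1 or either of its samples gave 2, Ccnd1 and Cdkn2a. With the block, a pair that has lost a sample no longer informs the treatment change. Leaving out a pair or either of its samples is thus close to the same setting, not separate evidence. Of the second list, 0 to 1 was called higher with samples left out, 1 in DESeq2 with the block, and 0 lower. Leaving out single samples or pairs moved the median of the CDK inhibitors between -0.23 and 0.041, and that of the replication genes between 0.028 and 0.18. With samples or pairs left out, the change of Top2a ran from -0.14 to 0.070 and that of Mki67 from -0.20 to 0.080, against -0.07 and -0.11 with all pairs, and both were positive only without pair 3 or either of its samples.

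Over all genes, edgeR with the block called 3 higher and 5 lower. Without the block edgeR called 0 and 0, with 0 of the 42 members, and DESeq2 16 and 1, with 0 members. With the block, DESeq2 called 116 and 104, and edgeR with no filter on low counts 27 and 41. The naming scheme as a batch term gave 0 and 0. With samples or pairs left out the calls ran from 0 to 493 higher and from 0 to 401 lower, the highest without anti-Stat3 sample 1. Pairing was used in the reported fit, so the fit without it is the alternative. With it left out, the change of Ccnd1 was 0.35 against 0.59, and that of Cdkn2a stayed at 0.66, both with an adjusted p of 1.00 in edgeR. The cause of these differences was not tested. The median SE of the members was 0.12, which limits the size of change that 3 pairs can resolve.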
